A study of Mus musculus with 28 samples.

Results

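Levels of 5 genes of cholinergic neurons were followed through the 3-week mouse brain: Chat, Slc18a3, Slc5a7, Ache and Gbx1. They were taken by name from the 20656 gene symbols that the array probes carry through their RefSeq accessions, and all 5 were found. The tissue was whole brain of untreated male C57BL/6J mice at 3 weeks of age, sliced along a body axis, with the RNA of each slab hybridised to 1 one-colour Agilent array. There were 12 coronal, 6 horizontal and 10 sagittal fractions, or 28 arrays in all. Each plane came from 1 mouse, so plane and mouse cannot be told apart, and no position was measured again. The spread in every test below is therefore the scatter of fractions around a fitted profile of 1 brain, and it may be technical.

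Cholinergic neurons make acetylcholine from choline, load it into vesicles, release it, and take the choline back up after acetylcholine has been cleaved. Large groups lie in the basal forebrain, as interneurons in the striatum, in motor nuclei of the brainstem and in the medial habenula. Olfactory bulb and cortex receive their fibres, while the cell bodies lie mostly elsewhere.

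Each level is the log2 processed signal of a probe minus the 75th percentile of its array, so 0 means a signal equal to that percentile. Probes differ in brightness, so levels of different genes were not ranked, and a difference between genes was read only for how it changed between fractions. The 75th percentile signal ran from 135.2 to 573.5 and was lowest in sagittal fraction 1. Between 24822 and 34240 of 55681 probes were well above background on an array. Chat, Slc18a3 and Ache were well above background on 28 arrays, Slc5a7 on 27 and Gbx1 on 5 by its chosen probe and 6 by its other. In bulk slabs, fewer cells of a type and less RNA per cell cannot be told apart.

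Regional marker genes placed the coronal fractions. The hindbrain list, mostly Hox genes, was highest in fraction 1, where its mean over 8 genes lay 5.21 above the coronal mean. The cerebellum list of 3 genes was highest in fraction 3, by 5.74. Its gene Pcp2 was at 8.67, 8.92, 8.63 and 6.96 in fractions 1 to 4 and at 1.97 in fraction 5. These caudal fractions therefore held cerebellum as well as brainstem, and the part of each in the levels below was not tested. The striatum list of 7 genes was highest in fraction 8, by 2.80. The olfactory bulb list of 4 genes was highest in fraction 12, by 5.86. Low fraction numbers are therefore called caudal and high ones rostral.

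Slc18a3 and Slc5a7 had a caudal peak in coronal fractions 1 to 4 and a rostral peak in fractions 7 to 9, with a dip at fractions 5 and 6. Chat was highest in fractions 3 and 4, and its levels in fractions 1 and 2 lay below those in fractions 5 and 6. Ache, by its chosen probe, sloped from caudal to rostral without a peak in fractions 7 to 9. All 4 were lowest in fractions 10 to 12.

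**Figure D1:**
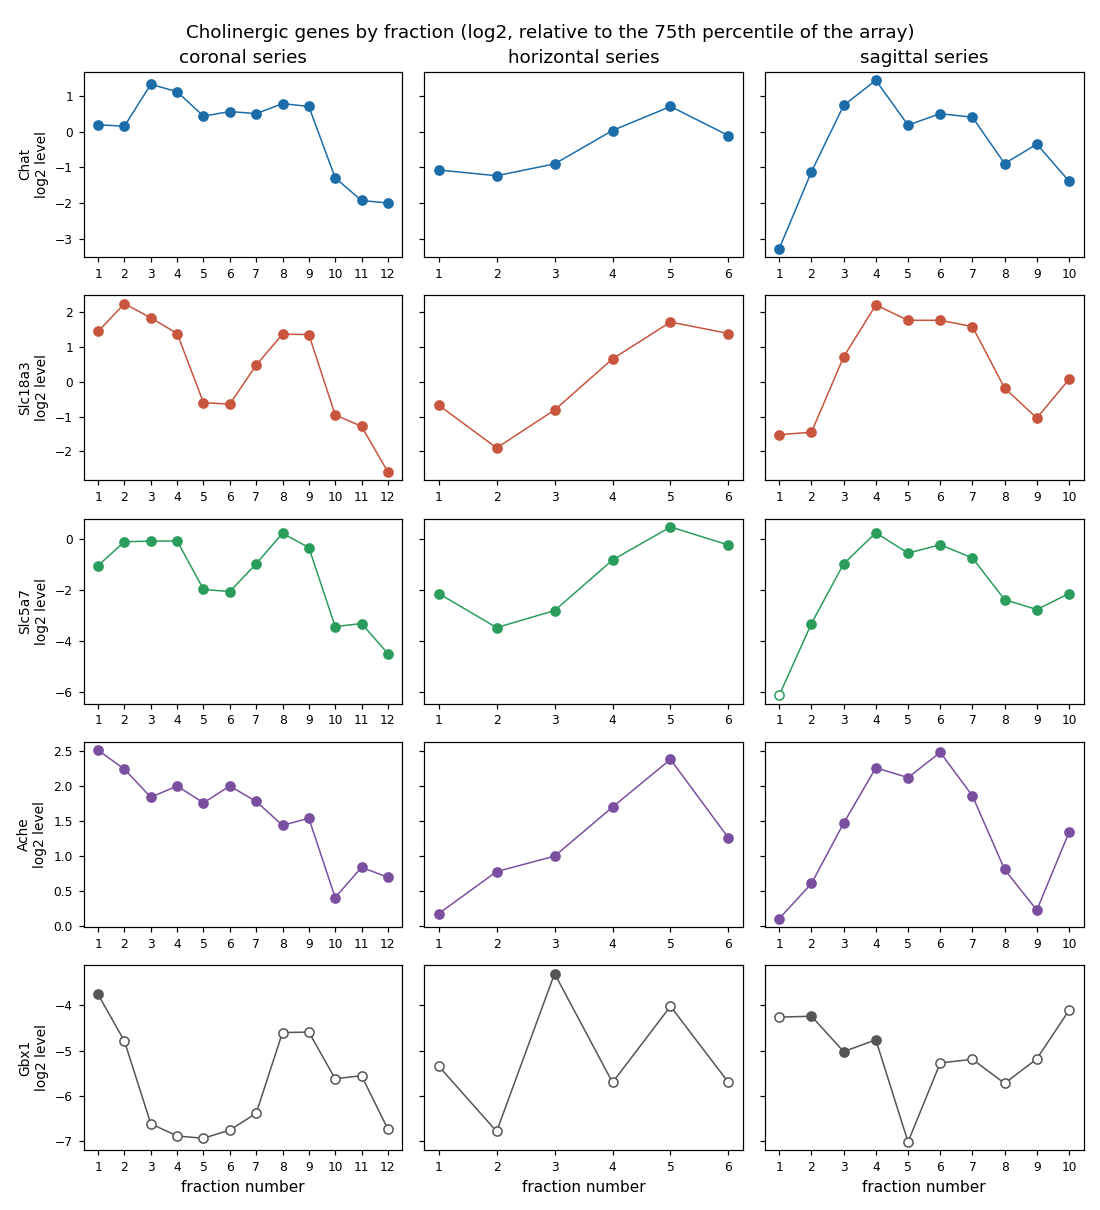
Log2 level of each gene (rows) in every fraction of the 3 series (columns), relative to the 75th percentile of the array. Filled points were well above background and open points were not. Slc18a3 and Slc5a7 dip in coronal fractions 5 and 6, and the 4 acetylcholine genes are highest in horizontal fraction 5.

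Slc18a3 encodes the vesicular acetylcholine transporter. Its coronal levels from fraction 1 to 12 were 1.45, 2.25, 1.84, 1.39, -0.60, -0.64, 0.48, 1.37, 1.36, -0.95, -1.28 and -2.59. Fractions 1 to 4, 8 and 9 were high, and the lowest values lay at the rostral end. From the trough in fraction 6, the level was 7.38-fold higher in fraction 2 and 4.01-fold higher in fraction 8.

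Slc5a7 encodes the high-affinity choline transporter that returns choline to the terminal. It measured -1.04, -0.10, -0.08, -0.07, -1.98, -2.06, -0.97, 0.23, -0.33, -3.44, -3.32 and -4.50 along the same axis. Its rostral peak in fraction 8 and its caudal plateau in fractions 2 to 4 stood at nearly one height. Fraction 4 was 3.99-fold and fraction 8 was 4.91-fold above fraction 6. A second Slc5a7 probe had its highest coronal value in the same fraction 8, and over the 16 arrays where both probes were well above background their difference had an SD of 0.25 log2.

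Chat encodes choline acetyltransferase, which makes acetylcholine. Its coronal levels were 0.19, 0.15, 1.32, 1.11, 0.43, 0.56, 0.50, 0.78, 0.70, -1.29, -1.92 and -1.99. They stayed above 0 from fraction 1 to 9 and dropped from fraction 10 on. Fraction 3 was 1.85-fold and fraction 8 only 1.28-fold above fraction 5.

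In RefSeq, Slc18a3 lies within the span of Chat on the same strand, an arrangement known as the cholinergic gene locus. The 250 bases upstream of the start of Chat, Slc18a3, Slc5a7 and Ache are shown because these 4 profiles correlated over the 28 fractions (r = 0.781 to 0.92), from RefSeq on GRCm38.p6. They lie at chr14:32465910-32466159 on the minus strand (Chat), chr14:32464851-32465100 on the minus strand (Slc18a3), chr17:54299035-54299284 on the minus strand (Slc5a7) and chr5:137288004-137288253 on the plus strand (Ache). Capitals mark matches, on either strand, to the homeodomain core TAATTA, the E-box CACGTG, the GC box GGGCGG and the TATA box TATAAA, with overlapping matches of a motif each counted.
Chat: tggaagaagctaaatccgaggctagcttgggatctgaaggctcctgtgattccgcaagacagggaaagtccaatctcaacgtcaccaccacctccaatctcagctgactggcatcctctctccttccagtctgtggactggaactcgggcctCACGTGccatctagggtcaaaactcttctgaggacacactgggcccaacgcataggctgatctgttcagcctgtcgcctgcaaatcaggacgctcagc
Slc18a3: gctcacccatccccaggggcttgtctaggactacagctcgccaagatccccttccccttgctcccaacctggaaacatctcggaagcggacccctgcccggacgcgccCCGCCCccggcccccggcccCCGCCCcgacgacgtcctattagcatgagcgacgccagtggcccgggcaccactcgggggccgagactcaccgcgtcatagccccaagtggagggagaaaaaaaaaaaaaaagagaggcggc
Slc5a7: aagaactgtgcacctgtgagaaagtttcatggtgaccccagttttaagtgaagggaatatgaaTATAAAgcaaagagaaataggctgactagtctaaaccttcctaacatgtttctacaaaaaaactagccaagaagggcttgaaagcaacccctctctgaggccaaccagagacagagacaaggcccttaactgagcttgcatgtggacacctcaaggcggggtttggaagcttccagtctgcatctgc
Ache: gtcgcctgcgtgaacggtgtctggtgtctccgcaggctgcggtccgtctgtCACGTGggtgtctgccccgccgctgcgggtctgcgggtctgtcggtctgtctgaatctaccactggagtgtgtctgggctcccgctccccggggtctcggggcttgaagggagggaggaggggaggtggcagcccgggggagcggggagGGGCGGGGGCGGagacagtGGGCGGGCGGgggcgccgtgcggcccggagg

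Chat and Ache each held 1 E-box, a motif found in 6.02% of 32817 promoters of this length. Slc18a3 held 2 GC boxes and Ache 4, against 32.7% of promoters with at least 1. Slc5a7 held 1 TATA box, as did 12.4% of promoters. None of the 4 windows held TAATTA, which is in 4.85% of promoters. GC content was 54.8% for Chat, 66.0% for Slc18a3, 45.6% for Slc5a7 and 73.6% for Ache, with a median of 52.4% over all promoters. The matches describe letters in these windows and no binding was measured.

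Ache encodes acetylcholinesterase, which cleaves acetylcholine and is made by many cells that receive it as well as by cholinergic ones. Its coronal levels were 2.51, 2.24, 1.84, 2.00, 1.76, 2.00, 1.78, 1.44, 1.54, 0.41, 0.84 and 0.70. They were highest in fraction 1 and lowest in fractions 10 to 12, a range of 4.27-fold. A second Ache probe had its highest coronal value in fraction 1 as well, and the probes correlated at r = 0.967 over the 28 arrays. In fractions 1 to 6 that probe measured 1.65, 1.29, 1.09, 1.28, 1.32 and 1.56, so it did not slope there.

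Gbx1 encodes a homeobox transcription factor of the developing basal forebrain and spinal cord. Both of its probes were dim. The chosen probe was well above background in coronal fraction 1 at -3.76, in horizontal fraction 3 at -3.30, and in sagittal fractions 2, 3 and 4 at -4.24, -5.02 and -4.76. By this probe coronal fraction 1 was at least 2.03-fold above the lowest fraction. The other Gbx1 probe was well above background in coronal fractions 1, 2, 7 and 9 at -3.12, -4.08, -2.33 and -3.68 and in sagittal fractions 3 and 4 at -4.59 and -3.87. The probes shared coronal fraction 1 and sagittal fractions 3 and 4, where their difference had an SD of 0.23 log2. They disagreed in coronal fraction 7, where the chosen probe was at -6.38 and not well above background, and in horizontal fraction 3, where the other probe was at -6.62 and not well above background. Coronal fractions 2 and 9 and sagittal fraction 2 were also well above background by only 1 of the probes. The other probe missed the detection filter and was not tested, and the probes correlated at r = 0.41.

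Whether level depended on position was tested by fitting a smooth curve through the fraction numbers in limma, with p-values adjusted by Benjamini-Hochberg over 32364 probes. Along the coronal axis 5 of 5 genes passed, against 33.7% of all probes. The fitted range was 3.21 log2 for Chat (adjusted p = 0.00381), 4.94 for Slc18a3 (adjusted p = 0.0161), 4.46 for Slc5a7 (adjusted p = 0.024) and 1.86 for Ache (adjusted p = 0.00476). Gbx1 had a fitted range of 3.53 (adjusted p = 0.000911), but 11 of the 12 coronal values of its tested probe were not well above background. The array slide changed along the axis, with fractions 1 and 2, 3 to 10, and 11 and 12 on different slides. With slide as a term 0 of 5 genes passed, against 0.745% of probes, and within fractions 3 to 10 on 1 slide 0 of 5 passed, against 12.9%. Slc18a3 and Slc5a7 also lost the call without fraction 11 (adjusted p = 0.0573 and 0.0764) or without fraction 12 (adjusted p = 0.131 and 0.166).

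To separate the peaks, the coronal axis was cut into 4 equal blocks of 3 fractions: caudal (1 to 3), middle (4 to 6), forebrain (7 to 9) and rostral (10 to 12). These names are labels, since forebrain tissue was not confined to fractions 7 to 9. Between the forebrain and middle blocks 0 of 4 cortex genes passed, with a median difference of 0.44. The hypothalamus gene Pmch was at 3.97 in fraction 6 and 4.69 in fraction 7, and the olfactory bulb list was highest in fraction 12. Slc18a3 averaged 1.85 ± 0.40 (SD, n = 3 fractions) in the caudal block, 0.05 ± 1.16 in the middle, 1.07 ± 0.51 in the forebrain block and -1.61 ± 0.86 in the rostral block. Slc5a7 averaged -0.41 ± 0.55, -1.37 ± 1.13, -0.36 ± 0.60 and -3.75 ± 0.65 in the same order. The middle block was lowest of the first 3 in both genes, but it varied most, since its fraction 4 still belonged to the caudal plateau. Chat differed little among these blocks, with 0.56 ± 0.66, 0.70 ± 0.36 and 0.66 ± 0.14, before -1.73 ± 0.38 in the rostral block.

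**Figure D2:**
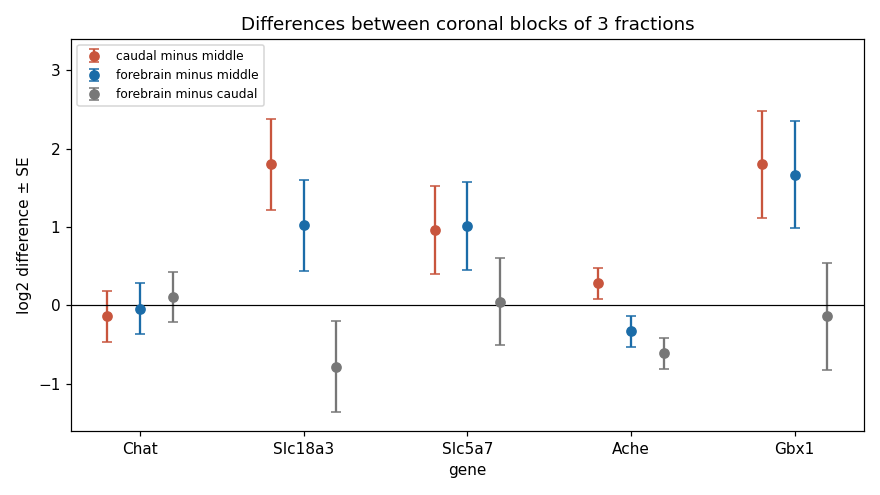
Difference in log2 level between coronal blocks of 3 fractions for each gene, with the SE of the limma fit as bars. Slc18a3 and Slc5a7 lie above 0 in both comparisons with the middle block, Chat lies near 0 in all 3, and no difference passed the adjusted test.

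No gene passed the limma test in any of these 3 block comparisons. The forebrain block exceeded the middle block by 1.02 ± 0.58 (SE) in Slc18a3 (adjusted p = 0.923) and by 1.01 ± 0.56 in Slc5a7 (adjusted p = 0.917). Over all probes 0.0124% passed as higher and 0.00309% as lower, so this comparison called almost nothing. At an unadjusted p under 0.05 it had 1 of 5 genes, against 5.69% of probes. That gene was Gbx1, whose tested probe was not well above background in any of fractions 4 to 9, so this value is not read. Its other probe, not tested, was well above background in fractions 7 and 9. The caudal block exceeded the middle block by 1.80 ± 0.58 in Slc18a3 (adjusted p = 0.0912), against 3.37% of probes called higher and 3.62% lower. At an unadjusted p under 0.05 there were 2 of 5 genes, Slc18a3 and Gbx1, against 22.9% of probes, and neither Gbx1 probe was well above background anywhere in the middle block. With fraction 4 left out of the middle block, a change chosen after seeing the data, the Slc18a3 difference was 2.47 (adjusted p = 0.0141).

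Between the peaks themselves, forebrain minus caudal, Slc5a7 differed by 0.05 ± 0.56, Chat by 0.11 ± 0.32 and Slc18a3 by -0.78 ± 0.58. Ache was lower in the forebrain block by -0.61 ± 0.20 (adjusted p = 0.0599). By its other probe the difference was -0.39 ± 0.18 (unadjusted p = 0.0585, adjusted p = 0.171). Here 8.05% of probes passed as higher and 8.90% as lower, and at an unadjusted p under 0.05 there was 1 of 5 genes, Ache, against 32.3% of probes.

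Whether a gene leaned to one peak more than Chat did was tested by an exact two-sided permutation test of its log2 level minus that of Chat, fractions 7 to 9 against 1 to 3. The lean was -0.88 for Slc18a3 (exact p = 0.3), -0.71 for Ache (exact p = 0.4) and -0.06 for Slc5a7 (exact p = 0.9), where negative means more caudal than Chat. For Gbx1 the chosen probe was well above background in only 1 of the 6 fractions, so its lean (exact p = 0.8) is not read. The other probe was well above background in fractions 1, 2, 7 and 9, and its lean was not tested. Over the 4 pairs the adjusted p was 0.8 to 0.9. The fractions overlapped in every pair, and 3 against 3 cannot go below 0.1.

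Genes known from forebrain and from brainstem cholinergic cells were compared between the blocks that hold the peaks. Lhx8, a LIM-homeobox factor of forebrain cholinergic neurons, was not well above background in coronal fractions 1 to 5 and reached -0.48, 1.39 and 0.74 in fractions 7, 8 and 9. A probe below background in a whole block gives only a bound, set against the lowest signal well above background on those arrays. On that basis Lhx8 was at least 32.9-fold higher in the forebrain than in the caudal block (adjusted p = 0.00101, with background values in fractions 1 to 3).

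Of the 7 genes of that list, 3 passed as higher, against 8.05% of probes, and 4 did not pass. All 3 were well above background only within coronal fractions 6 to 10, so along this axis they were detected through the fractions where they were high and had to differ, and their count, median and p-values are a description. The others that passed were the transcription factor genes Isl1, at least 9.37-fold, and Nkx2-1, at least 2.76-fold higher (adjusted p = 0.0131 and 0.0113). The median difference of the list was 1.47 with such genes at their bound and 1.69 as measured, against 0.00 over all probes. Regional marker lists differed as well in this comparison, with 7 of 7 striatum genes and 4 of 4 cortex genes higher (medians 4.46 and 4.25, with 1 and 2 genes at their bound).

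Ngfr, the low-affinity neurotrophin receptor carried by basal forebrain cholinergic neurons, had both peaks. It was -0.38 in fraction 3, -1.99 in fraction 5 and 0.64 in fraction 8. Forebrain minus caudal it differed by 1.00 ± 0.43 (adjusted p = 0.132).

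Phox2a, a homeobox factor of cranial motor and noradrenergic neurons, was -1.41, -1.66, -2.29 and -1.36 in coronal fractions 1 to 4 and was not well above background in fractions 5 to 12. Of 9 genes of the brainstem motor neuron list 8 were named on the array and 5 were tested, while Tbx20, Isl2 and Chodl missed the detection filter. All 5 tested genes were lower in the forebrain than in the caudal block, against 8.90% of probes. Of these, 3 were well above background along this axis only within fractions 1 to 5 and had to differ, so this count too is a description. The intermediate filament gene Prph (-3.57 ± 0.44) and the peptide gene Calca (-2.02 ± 0.51) were measured on both sides. Phox2a and Calcb, another peptide gene, were not well above background in the forebrain block and were at least 4.98-fold and at least 2.67-fold higher caudally (adjusted p = 0.0199 and 0.026). The median of the list was -2.32 with such genes at their bound and -3.57 as measured. In the hindbrain list 8 of 8 genes were lower too, but none was well above background in the forebrain block, so they were detected mainly through the caudal fractions and had to differ. Their median was -3.37 with these genes at their bound.

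**Figure D3:**
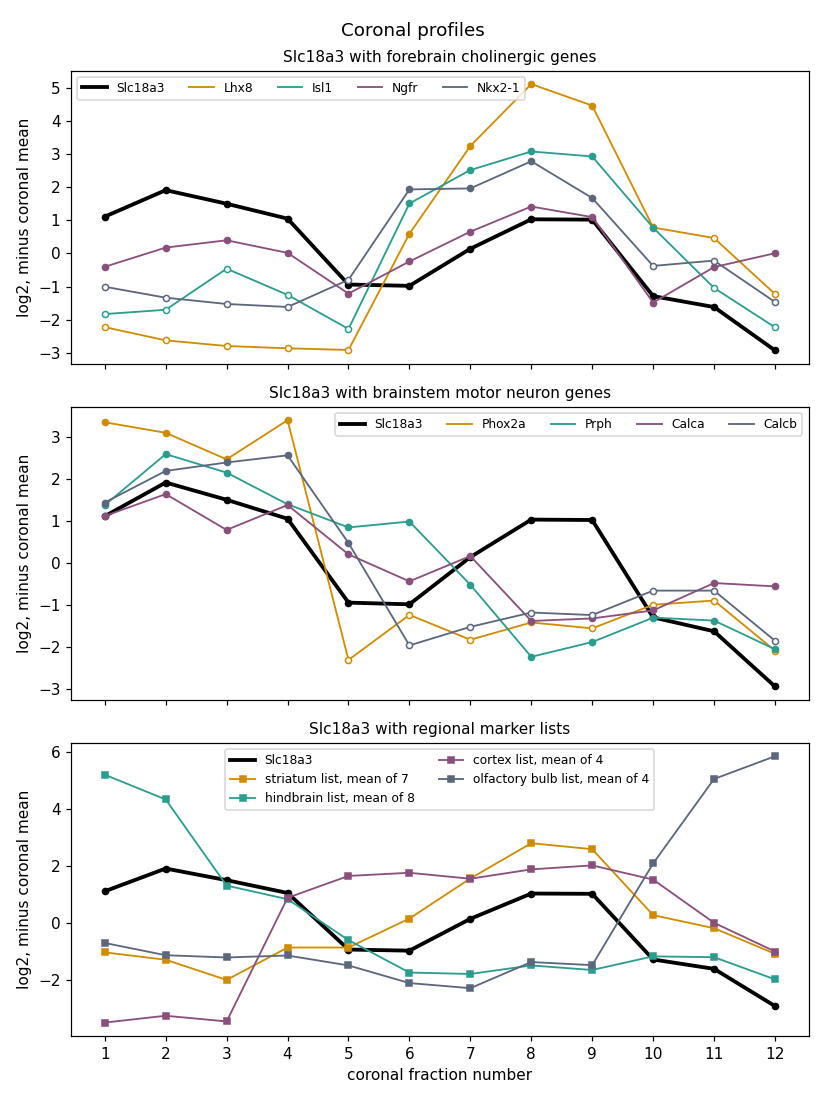
Coronal profiles, as log2 level minus the mean of the gene or list over 12 fractions, of Slc18a3 (black) with 4 forebrain cholinergic genes, with 4 brainstem motor neuron genes, and with 4 regional marker lists. Open points were not well above background. Lhx8 rises with the rostral peak of Slc18a3 and Phox2a with its caudal peak.

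Along the horizontal axis the 4 acetylcholine genes were highest in fraction 5. From fraction 1 to 6, Slc18a3 measured -0.67, -1.90, -0.81, 0.66, 1.72 and 1.39. Slc5a7 measured -2.14, -3.48, -2.81, -0.82, 0.48 and -0.23. Chat measured -1.07, -1.23, -0.90, 0.03, 0.70 and -0.11.

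Fractions 4 to 6 were above fractions 1 to 3 in these 3 genes, with no overlap, as in 3.74% of all probes. Ache measured 0.18, 0.78, 1.00, 1.70, 2.38 and 1.26, and likewise did not overlap. The mean of the cortex list peaked in fraction 1 and that of the hypothalamus list in fraction 6, which puts fraction 5 on the ventral side. Within the lists, the cortex genes Tbr1 and Neurod6 were highest in fraction 2, and the hypothalamus gene Hcrt in fraction 5. In the limma trend 0 of 5 genes passed, against 15.8% of probes, and 2 of 5 did at an unadjusted p under 0.05, near the 37.1% of all probes. Adjusted p was 0.0984 for Slc18a3, 0.107 for Ache, 0.14 for Slc5a7 and 0.156 for Chat, with 6 arrays. Scaled to the array median, 4 of 5 genes passed, as did 59.7% of probes.

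Along the sagittal axis the levels were high around the middle fractions. Slc18a3 measured -1.52, -1.45, 0.72, 2.21, 1.77, 1.77, 1.59, -0.18, -1.04 and 0.07 in fractions 1 to 10. Chat measured -3.26, -1.12, 0.73, 1.43, 0.18, 0.50, 0.40, -0.89, -0.35 and -1.38. Fractions 4 to 7 held the 4 highest values of Slc18a3, whereas in Chat fraction 3 was above fractions 5 to 7.

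Slc5a7 ran from -6.14 in fraction 1, which was not well above background, to 0.25 in fraction 4, at least 18.5-fold higher. Ache ran from 0.11 in fraction 1 to 2.48 in fraction 6. The limma trend passed in 3 of 5 genes, against 14.7% of probes: Chat (adjusted p = 0.0131), Slc18a3 (adjusted p = 0.0327) and Slc5a7 (adjusted p = 0.00952). Without fraction 1, the dimmest array, no probe passed at all, and the adjusted p of these genes was 0.233, 0.11 and 0.11. Without fraction 4, 1 of 5 genes passed, against 6.45% of probes. Within fractions 5 to 10, on 1 slide, no probe passed. Scaled to the array median, 2 of 5 genes passed, against 1.05% of probes.

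Sagittal fractions were also paired by their distance from the middle of the series, which the labels do not name as the midline. Fractions 1 to 4 and 5 to 10 lay on different slides, so only the innermost pair shared a slide. For Slc18a3 the members of the innermost pair, fractions 5 and 6, were both at 1.77, and the outermost, fractions 1 and 10, were at -1.52 and 0.07. Slc5a7 differed by at least 1.82 in the outermost pair, since fraction 1 was not well above background, and by 0.33 in the innermost. The limma test between the 5 pairs called 0 of 5 genes and 0% of probes. At an unadjusted p under 0.05 it had 4 of 5 genes, against 16.7% of probes, and scaled to the array median it called 3, against 3.46%.

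**Figure D4:**
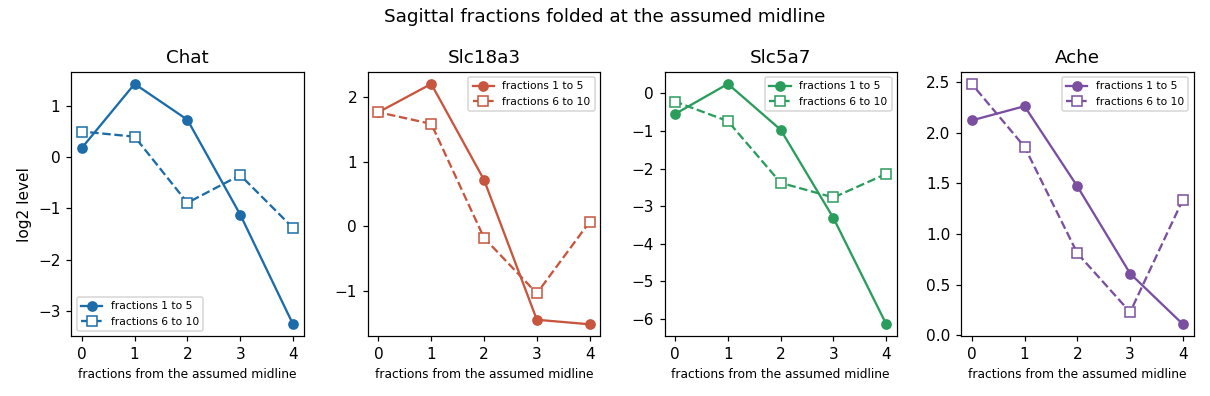
Log2 level in sagittal fractions, folded at the assumed midline between fractions 5 and 6, for the 4 acetylcholine genes. The sides lie close in the innermost pair and farthest apart in the outermost pair for Chat, Slc18a3, Slc5a7 and Ache. Only the innermost pair lay on the same slide.

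Over the 28 fractions Slc18a3 and Slc5a7 correlated at r = 0.92, Chat and Slc5a7 at 0.908, and Chat and Slc18a3 at 0.792. Ache correlated with these 3 genes at 0.781 to 0.806, and values for Gbx1 (-0.154 to 0.129) rest mostly on background signal. These values describe fractions that share 3 brains and 4 slides.

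Among 14990 symbols, the profile most like Slc18a3 was that of Slc5a7, and the next were Ecel1 (r = 0.851), Arhgap36, Nefl and Serpinb1b (each r = 0.839). The closest to Slc5a7 were Slc18a3, Chat, Gpat3 (0.875), Cyp2s1 (0.871) and the sodium channel subunit gene Scn4b (0.868). Chat was closest to Usp8 (0.936), Papola (0.933), Hhip (0.932), Slc5a7 and Ankrd34b (0.901). Ache was closest to Cptp (0.95), Endod1 (0.949), Dgkq (0.947), Entpd3 (0.946) and B630019K06Rik (0.941). For Gbx1, whose chosen probe was well above background on 5 of 28 arrays and whose other probe was on 6, no likeness is read. Both the names and their order moved with the scaling and the measure.

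Of 8 genes of choline handling, all tested, 4 passed the coronal trend (Colq, Slc44a1, Slc10a4 and Slc17a8), against 33.7% of probes, and the median fitted range of the list was 0.90, the same as over all probes. Slc10a4, a vesicular protein of cholinergic and monoamine neurons, was -2.64, -1.95, -1.98, -0.60, -0.89, -2.24, -2.0, -0.61 and -0.85 in fractions 1 to 9 and was not well above background in fractions 10 to 12. It was high in fractions 4, 5, 8 and 9 and low in fractions 1 to 3, where Slc18a3 was high. Colq, the collagen tail of acetylcholinesterase, was higher caudally, by 1.77 ± 0.23 over the middle block (adjusted p = 0.00266).

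Receptor genes were compared between the forebrain and caudal blocks, where 8.05% of probes passed as higher and 8.90% as lower. Of 5 muscarinic genes 4 were tested, and 3 were higher in the forebrain block: Chrm1 (5.94 ± 0.39), Chrm3 (3.23 ± 0.35) and Chrm4 (1.00 ± 0.28). Chrm4 was not well above background in fractions 1 and 2, so its difference rests partly on background values. In fraction 3 it was at -3.63, and in fractions 7, 8 and 9 at -3.64, -3.06 and -2.97. Of 11 nicotinic genes 7 were tested, of which 2 were higher and 1 was lower. Chrna7 and Chrna10 were at least 3.72-fold and at least 2.37-fold higher (adjusted p = 0.0013 and 0.0171), since neither was well above background in fractions 1 to 3. Along this axis both were detected only outside the caudal block and had to differ. Their count and p-values are therefore a description. Chrnb2 was lower (-0.83 ± 0.23).

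Markers of other cells moved along the same axes. The mean of 5 oligodendrocyte genes ran from -1.86 to 1.02 along the coronal axis, and it correlated with Chat at r = 0.763 over 12 coronal and 0.862 over 10 sagittal fractions. Its part in the profiles was not tested. Between the forebrain and caudal blocks, where 8.05% of all probes passed as higher and 8.90% as lower, 4 of 5 erythroid genes were tested. All 4 (median -1.62) and 3 of 4 astrocyte genes (median -1.12) were lower. Of the microglia genes 3 of 4 (median 0.80) were higher, and none of 4 endothelial or 5 oligodendrocyte genes passed. Their part was not tested.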

How the data were processed

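Cy3-labelled RNA was hybridised to one-colour Agilent arrays, 1 per fraction. The deposited intensity values are processed signals from Agilent Feature Extraction 10.5.1.1, background-subtracted within the array, with a design annotated on mm9. The authors also deposited log2 values, normalized per chip, for 44721 probes, which were used as an alternative. Control and outlier spots were left out, spots of a probe were averaged, and each array's 75th percentile was subtracted from its log2 signals. Each gene was read from its RefSeq-named probe with the highest mean. Where a probe had several spots, a share of at least 0.5 of them had to clear the scanner software's background test. Only probes that did so somewhere in every series, with values on all 28 arrays, were tested, which left 32364.

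Trends (splines of 3 degrees of freedom, 2 for the horizontal series), mirror pairs and block contrasts were fitted in limma 3.58.1 (R 4.3.3) at an adjusted p of 0.05. Exact tests used scipy 1.17.1. Tested on simulated data, the fits recovered nearly all larger changes, but the horizontal and sagittal trends missed most smaller ones. For the normexp alternative, median spot signals were used. The labels give 100 sections of 5 micron per fraction, while the methods state another thickness, so positions are fraction numbers. The last coronal fraction pools a following slice. Genes named by likeness were the 5 with the largest Pearson r among probes well above background on at least 10 arrays. The members, lists and motifs were chosen with earlier results of these data known. Some genes of the lists are counted but not reported here by name.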

Additional observations from a re-analysis of the deposited data

How the results depend on the processing

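No paired analysis was possible because a fraction number is a position along a different axis in each series and no result compares series, so equal numbers form no replicate pairs. Counts below are of the 5 genes called. In the coronal trend (5), 0 were called with slide as a term (0.745% of probes) and 0 within fractions 3 to 10 (12.9%). When 1 fraction was left out, 3 to 5 were called (24.5% to 34.4%). In the horizontal trend (0), 4 were called with array-median scaling (59.7%) and 3 with normexp background (28.0%). The count was 2 with 1 more spline degree of freedom (4.95%). When 1 fraction was left out it was 0 to 2 (0.0% to 17.8%), and no probe passed without fraction 3 or without fraction 4. In the sagittal trend (3), 2 were called with array-median scaling (1.05%), 5 with normexp (44.2%) and 0 within fractions 5 to 10 (0 probes). With 1 fraction left out 0 to 4 were called, and the share of probes ran from 0.0% without fraction 1 to 47.1% without fraction 10. Mirror pairs (0) gave 3 with array-median scaling (3.46%). With 1 fraction left out they gave 0 to 2, and the share of probes ran from 0.0% to 16.2%, the latter without fraction 2. Caudal minus middle (0) gave 1 with normexp (8.55%) and 1 with fractions 1 and 2 alone as the caudal block (3.48%). It gave 1 without fraction 4 in the middle block (7.34%, chosen after seeing the data). With 1 fraction left out it gave 0 to 1 (2.11% to 11.5%). The gene called with fractions 1 and 2 alone was Gbx1. Its tested probe was not well above background in fractions 2 and 4 to 6, so this call is not read. Gbx1 also made 1 of the calls with 1 fraction left out, likewise not read. Forebrain minus caudal (0) gave 1 with normexp (16.2%) and 0 to 1 with 1 fraction left out (9.54% to 24.6%). Of the 25 names chosen by likeness, 16 were still named with array-median scaling, 12 with quantile normalization and 9 by Spearman rho. The cause of these changes was not tested.

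Block differences that turned sign were small in the main fit, and none was called. Chat, forebrain minus middle, was 0.04 with fractions 8 and 9 alone, 0.17 without fraction 4 in the middle block, and -0.17 to 0.17 with 1 fraction left out. Chat, caudal minus middle, was 0.62 with slide as a term, 0.06 without fraction 4 in the middle block, and -0.53 to 0.06 with 1 fraction left out. Chat, forebrain minus caudal, was -0.66 with slide and -0.10 to 0.49 with 1 fraction left out. Ache, caudal minus middle, was -0.08 with slide and -0.04 by its other probe. Slc5a7, forebrain minus caudal, was -0.03 with array-median scaling, -0.00 with normexp, -0.28 with slide, and -0.27 to 0.36 with 1 fraction left out. Gbx1, forebrain minus caudal, was 1.42 with slide and -0.92 to 0.51 with 1 fraction left out.

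The number of arrays, 1 per position, limits the precision, and slide follows position along the coronal and sagittal axes. Gbx1 was near background on most arrays. The forebrain and middle blocks lie on 1 slide, and the caudal block spans 2 slides.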
